A study of Mus musculus with 12 samples.

Results

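The genes described here are Hoxa3, Hoxa5, Hoxa7, Hoxa9 and Hoxa10 of the Hoxa cluster, Hoxb3, Hoxb4 and Hoxb5 of the Hoxb cluster, and Pbx3, which codes for a partner of Hox proteins. They are taken by name as Hox genes of stem cells and a PBX partner, with earlier results of these data known, and are 9 of the 35999 genes in the table. Expression was measured by RNA sequencing of LSK cells, the bone marrow fraction that lacks lineage markers, carries Sca-1 and KIT on its surface and holds hematopoietic stem cells and multipotent progenitors. There was 1 library per mouse, 6 from WT mice and 6 from Fancg KO mice, numbered 2 to 7 in each genotype. The KO mice lack Fancg, a subunit of the Fanconi anemia core complex that acts in the repair of DNA crosslinks. The loss is carried in every tissue, so the marrow around the sorted cells lacked the gene as well. No treatment is named for any library, and the ages of the mice are not given in the sources used here.

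Hox genes code for transcription factors that bind DNA through a homeodomain and lie in clusters in which the order of the genes follows the order of their use along the body axis. In blood formation several genes of the Hoxa and Hoxb clusters are used in stem cells and early progenitors and are turned down as cells mature. PBX and MEIS proteins, which belong to the TALE class of homeodomain proteins, bind DNA together with Hox proteins and sharpen their choice of site. Hoxa9 with Meis1 and Pbx3 is best known in this tissue for its part in acute myeloid leukemia, a disease to which people with Fanconi anemia are prone.

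The genes share the homeobox, the stretch that codes for the homeodomain. A stretch of 30 bases that codes for part of its recognition helix, the helix that enters the major groove of DNA, is shown for each gene so that the Hox genes can be compared with each other and with Pbx3. The stretches were read on the coding strand from the coding transcripts of GENCODE release M21 (GRCm38), and capitals mark a base that differs from Hoxa9 at that place.
Hoxa3: tggttccagaaccgcCgCatgaaGTACaag
Hoxb3: tggttccagaaccgTCgCatgaaGTACaag
Hoxb4: tggttccagaaTcgGCgCatgaaGTGgaaA
Hoxa5: tggttccaAaacAgGaggatgaaGTGgaaA
Hoxb5: tggttccagaaccgTCgCatgaaGTGgaag
Hoxa7: tggttccagaaTcgGCgCatgaaGTGgaag
Hoxa9: tggttccagaaccgcaggatgaaaatgaag
Hoxa10: tggttTcagaaTcgcaggatgaaaCtgaag
Pbx3: tggttTGGCaacAAACgAatCaGGTACaag

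Hoxa10, of the paralogue group next to Hoxa9, differed from it at 3 of the 30 places. The other Hox genes differed from Hoxa9 at 6 to 8 places and Pbx3 at 15. Such likeness matters for the measurement, since reads are assigned by stretches of 31 bases. Over whole transcripts the sharing was small for most of the genes. The share of 31-base stretches also found in another gene of the table was 1.83% for Hoxb4, 1.45% for Hoxb3, 1.01% for Hoxa7 and 0.108% or less for Hoxa5, Hoxa9, Hoxa10, Hoxb5 and Pbx3. Hoxa3 was the exception at 12.6%, of which 452 stretches were shared with Gm28308 and 262 with 5730596B20Rik, so its values are less certain. Gm28308 had a signal of 0 to 3.55, and the log2 fold change of Hoxa3 summed with it was -0.44 (exact permutation test, p = 0.431). 5730596B20Rik had a signal of 1.13 to 16.1, and was above Hoxa3 in KO 2 (12.9 against 10.1) and KO 7 (16.1 against 5.19). The counting is not stated to use strand, and the Hox clusters hold antisense genes whose reads could not be told apart from those of the Hox genes without it.

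In GRCm38 the Hoxa genes lie on the minus strand of chromosome 6, in the order of their numbers. Hoxa3 spans 52169062 to 52213336 (ENSMUSG00000079560.13), Hoxa5 52201754 to 52204587 (ENSMUSG00000038253.6), Hoxa7 52214491 to 52221854 (ENSMUSG00000038236.8), Hoxa9 52223100 to 52231089 (ENSMUSG00000038227.15) and Hoxa10 52231197 to 52240854 (ENSMUSG00000000938.11). Hoxa5 thus lies within the annotated span of Hoxa3. The Hoxb genes lie on the plus strand of chromosome 11. Hoxb5 spans 96303336 to 96306121 (ENSMUSG00000038700.4), Hoxb4 96318267 to 96321638 (ENSMUSG00000038692.8) and Hoxb3 96323326 to 96347930 (ENSMUSG00000048763.11). Pbx3 lies apart, on the minus strand of chromosome 2 from 34171457 to 34373142 (ENSMUSG00000038718.15).

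A pair of motifs was looked for on both strands of the RefSeq promoter windows (GRCm38.p6, 250 bases before to 50 after a gene's start), in which 6 of the 9 genes had an entry. TGATNNAT, a form of the site bound by Hox and PBX proteins together, was in none of the 6. It was in 10.1% of 27025 genes and in 8.85% of 32851 windows. TGACAG, the MEIS core, was in 1 of 6, against 21.6% of all genes and 19.2% of all windows. It stood on the strand opposite to Hoxa3, in capitals here, at chr6:52213064-52213091 of the minus strand: cgaagcgacagCTGTCAgagaggcagaa. The motifs do not overlap each other in these windows, and a match is a string of letters and not a measured site.

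The unit of the table is called signal here, the reads assigned to a gene after scaling each library by its own factor. Total signal ran from 1576081 to 2672915 per library, which corresponds to about 1235109 to 2471417 reads, and Lars2 alone took 15.6 to 36.2% of it. Fancg, the targeted gene, was detected at a low level under both labels, from 4.76 to 24.1 in the WT libraries and from 4.46 to 14.5 in the KO libraries (two-sided exact permutation test, p = 0.636), so it did not separate them and the genotypes rest on the labels. The LSK label was checked against the genes of its surface markers, and Kit had a mean signal of 336 in WT and 351 in KO libraries, Cd34 646 and 595, and Ly6a (Sca-1) 11.5 and 10.1. Genes of other blood cells were present to different degrees. Of the T cell genes, Cd3e, Cd3g and Cd3d had means under 1 in both genotypes and Cd8a means of 3.01 in WT and 2.69 in KO libraries. Of the B cell genes, Pax5 had means under 1, while Cd79b had 14.6 and 13.1 and Ebf1 117 and 132. Of the granulocyte and monocyte genes, S100a8 and S100a9, which mark mature cells, had means under 1, while Mpo, a progenitor gene, had 661 and 704. Summed signal in WT and KO libraries ran from 10.3 to 76.7 and 20.2 to 100 for 7 erythroid genes, from 38.2 to 198 and 53.8 to 299 for 5 B cell genes, from 0.147 to 5.00 and 1.06 to 6.64 for 4 T cell genes and from 42.0 to 86.0 and 48.1 to 252 for 4 megakaryocyte genes, of which KO 7 had the most. The libraries WT 3 and KO 7 stood apart in 4 Y-linked genes, with a summed signal of 26.6 and 49.7 against 189 to 435 in the other 10. WT 6 and KO 6 stood apart in myeloid genes, as described with the results they touch.

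Hoxa9 had the highest level of the 9 genes in the WT libraries. Signal was divided by the length of the longest coding transcript, since levels compare between genes only per kilobase. Its level was 10.1 ± 1.91 per kb (SD, n = 6), and its lowest WT library, at 7.61, lay above every WT value of Hoxa7, Hoxb4, Pbx3, Hoxa10, Hoxb3 and Hoxb5, of which the highest was 7.42. Hoxa5, a regulator of progenitor choice between myeloid and erythroid fates, came next at 6.47 ± 2.37 per kb. It was followed by Hoxa3 at 5.99 ± 3.44, Hoxa7 at 5.38 ± 1.56 and Hoxb4, a gene whose forced expression expands stem cells, at 4.26 ± 1.38 per kb (SD, n = 6 each). Pbx3 at 2.64 ± 1.43, Hoxa10 at 2.49 ± 1.51, Hoxb3 at 1.34 ± 0.948 and Hoxb5 at 0.498 ± 0.455 per kb were lowest (SD, n = 6 each). Each gene's range overlapped that of the next gene in this order. Differences between neighbours within the same library were not tested.

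In the KO libraries Hoxa9 was again highest, at 8.49 ± 4.57 per kb (SD, n = 6), and Hoxb5 lowest, at 1.03 ± 0.640. Hoxa7 stood at 5.71 ± 3.93, Hoxa5 at 5.42 ± 2.04, Hoxa3 at 4.2 ± 4.03, Hoxb4 at 3.51 ± 1.36, Hoxa10 at 2.41 ± 0.776, Pbx3 at 1.84 ± 1.02 and Hoxb3 at 1.78 ± 0.748 per kb. Neighbours in the order overlapped here too. Over all 12 libraries Hoxa9 had the highest level per kb in 7, Hoxa3 and Hoxa5 in 2 each and Hoxa10 in 1.

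**Figure D1:**
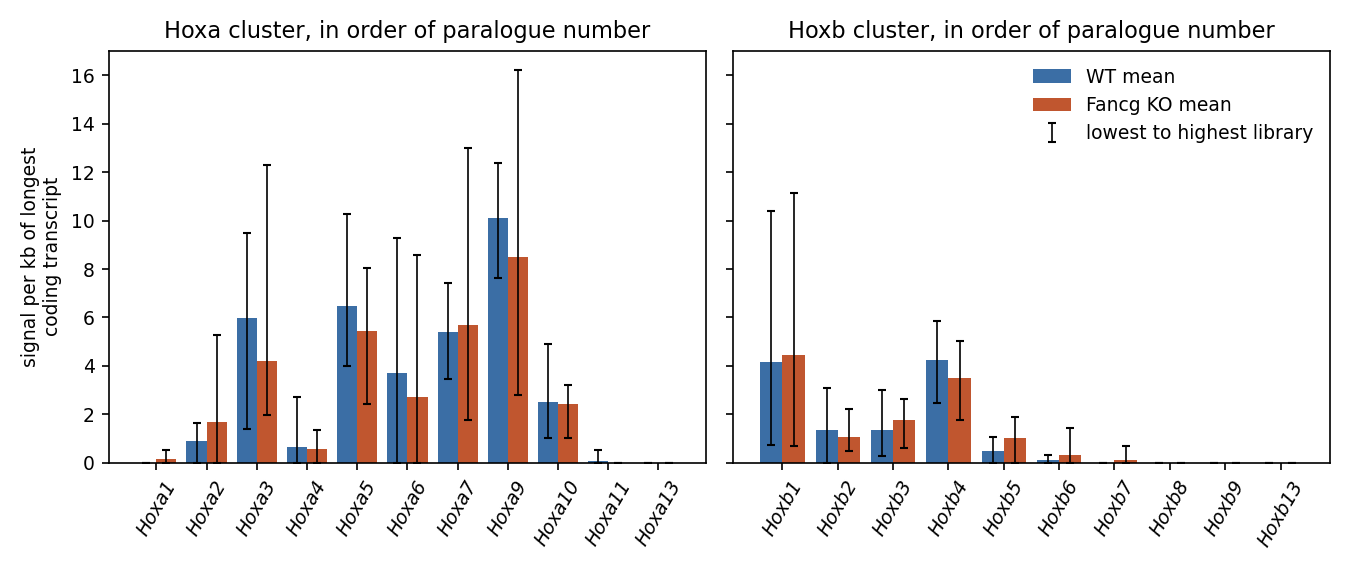
Signal per kb of the longest coding transcript for the 11 Hoxa genes and the 10 Hoxb genes in order of paralogue number; bars are means of the 6 WT and 6 Fancg KO libraries and lines run from the lowest to the highest library. Hoxa9 has the tallest bar in both genotypes, at 10.1 and 8.49 per kb, and the genes on the far right of both clusters are at or near 0.

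Few reads lay behind these levels. Signal divided by the signal of 1 read gave 7.90 to 66.9 reads of Hoxa9 per library, 2.91 to 38.1 of Hoxa3, 3.13 to 33.4 of Hoxa7 and 4.00 to 19.0 of Hoxa5. Hoxb4 had 3.00 to 18.0, Hoxa10 1.66 to 13.7, Pbx3 3.12 to 12.2, Hoxb3 0.699 to 8.36 and Hoxb5 0 to 3.30 reads. The variance between libraries of 1 genotype was 1.08 times the counting variance for Hoxb4, 1.40 for Hoxa5, 1.44 for Hoxa10 and 1.88 for Pbx3, under the median of 2.20 over 7666 genes of mean signal 5 to 50. It was 3.58 times for Hoxa7, 5.03 for Hoxa9 and 8.35 for Hoxa3, against an upper quartile of 3.61 over those genes. Hoxa3 and Hoxa9 were thus above that upper quartile. The band holds genes of lower mean than Hoxa9, and the ratio was not compared at matched level.

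The comparison of genotypes asks whether these genes differ in LSK cells that lack Fancg. No member of the group differed between WT and Fancg KO libraries beyond the spread between mice, and the values of the genotypes overlapped for all 9. Of the 9 genes, 4 (Hoxa3, Hoxa5, Hoxa7, Hoxa9) reached a mean of 10 and were tested with limma among 8887 genes. None of the 4 had an adjusted p under 0.05 (1.0 for each after Benjamini-Hochberg adjustment) or an unadjusted p under 0.05, against 3.67% of all genes tested for the unadjusted threshold and 0.0% for the adjusted one. By the two-sided exact permutation test on log2(signal + 1), whose smallest possible p is 0.0022, 0 of the 9 passed 0.05, against 2.86% of the 21536 genes above 0 in any library. The limma fit without a filter on low values, over the same 21536 genes, called 0 of the 9 at an unadjusted p under 0.05, against 3.88% of all. Groups that did not overlap were seen for 0.09% of the genes tested. The mean was lower in KO for 6 of the 9 genes on the log2 scale, where 49.6% of those 21536 genes were lower, and for 4 of the 4 tested, where 49.3% of the 8887 were. The median log2 fold change was -0.25 over the 9 genes and -0.32 over the 4 tested, and 0.00 over all genes tested (quartiles -0.14 and 0.15). Fold changes are KO minus WT on the log2(signal + 1) scale, which understates the change of low genes.

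Hoxa9 is a posterior gene of the set and a promoter of stem and progenitor cell growth. Its signal was 24.6, 32.9 and 39.9 (lowest, median and highest) in WT and 8.96, 26.9 and 52.3 in KO libraries. The KO libraries enclosed the WT range, with KO 4 above and KO 6 and KO 7 below every WT library. The means were 32.6 ± 6.16 and 27.4 ± 14.8 (SD, n = 6), and the log2 fold change was -0.40 (SE 0.31, 95% interval -1.07 to 0.27, limma, unadjusted p = 0.221). Single KO libraries moved this value in both directions. Without KO 4 the log2 fold change was -0.62 (limma, unadjusted p = 0.0456), and without KO 6 it was -0.13 (limma, unadjusted p = 0.595).

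Hoxa7, its neighbour in the cluster, had a signal of 6.92, 10.6 and 14.9 in WT and of 3.55, 10.4 and 26.1 in KO libraries. KO 4 was again above all others and KO 6 and KO 7 again lowest. The means were 10.8 ± 3.13 and 11.5 ± 7.90 (SD, n = 6), with a log2 fold change of -0.10 (SE 0.38, 95% interval -0.90 to 0.70, limma, unadjusted p = 0.792), and the sign turned to 0.14 without KO 6.

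Hoxa10, which drives progenitors toward myeloid and megakaryocyte fates when forced, had a signal of 2.66, 5.54 and 12.5 in WT and of 2.67, 6.60 and 8.22 in KO libraries. The KO values lay inside the WT range. The means were 6.39 ± 3.87 and 6.19 ± 1.99 (SD, n = 6), and the log2 fold change was 0.07 (exact permutation test, p = 0.864).

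Hoxa5 had a signal of 7.53, 11.6 and 19.3 in WT and of 4.54, 10.5 and 15.1 in KO libraries. KO 6 lay below every WT library, and KO 3, at 7.52, was level with the lowest of them, WT 6. The means were 12.1 ± 4.44 and 10.2 ± 3.82 (SD, n = 6), with a log2 fold change of -0.25 (SE 0.32, 95% interval -0.92 to 0.42, limma, unadjusted p = 0.442). Without KO 6 it was -0.063 (limma, unadjusted p = 0.835).

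Hoxa3, the most 3′ of the 5 Hoxa members, had a signal of 3.66, 16.0 and 24.5 in WT and of 5.16, 6.47 and 31.9 in KO libraries. Its WT values fell into 3 libraries above 22 and 3 under 10, and its KO values were all under 11 except KO 3, the highest of all 12. The means were 15.5 ± 8.91 and 10.9 ± 10.4 (SD, n = 6), with a log2 fold change of -0.55 (SE 0.49, 95% interval -1.59 to 0.48, limma, unadjusted p = 0.273). Without KO 3 it was -0.91 (limma, unadjusted p = 0.0550).

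By mean level per kb, Hoxb3 and Hoxb5 were below all the Hoxa members in both genotypes, while Hoxb4 was above Hoxa10. Hoxb4, whose mean of 9.98 over all libraries fell just short of the limit of 10, had a signal of 6.35, 11 and 15.0 in WT and of 4.54, 10.4 and 12.9 in KO libraries. KO 6 and KO 7 lay below every WT library and the rest within the WT range. The means were 10.9 ± 3.53 and 9.02 ± 3.50 (SD, n = 6), with a log2 fold change of -0.28 (exact permutation test, p = 0.359).

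Hoxb3 had a signal of 0.877, 4.03 and 9.64 in WT and of 1.92, 5.81 and 8.40 in KO libraries, with the KO values inside the WT range. Its log2 fold change was 0.45 (exact permutation test, p = 0.333).

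Hoxb5, in mice a marker of long-term stem cells, had a signal of 0, 0.906 and 1.99 in WT and of 0, 2.12 and 3.56 in KO libraries, and was listed at 0 in WT 6, WT 7 and KO 6. Its log2 fold change of 0.60 (exact permutation test, p = 0.175) rested on at most 3.30 reads per library. It became 0.88 without KO 6 (exact permutation test, p = 0.0325).

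Pbx3, the PBX partner of Hoxa9 in leukemia, had a signal of 3.91, 5.89 and 13.6 in WT and of 2.62, 4.27 and 10.2 in KO libraries. WT 2 was the highest library, and KO 3 and KO 4 were below every WT library. The means were 7.23 ± 3.92 and 5.03 ± 2.79 (SD, n = 6), with a log2 fold change of -0.43 (exact permutation test, p = 0.247).

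For the 5 genes below the limit, 95% intervals were taken from the limma fit without a filter on low values. They ran from -0.76 to 0.89 for Hoxa10, from -0.50 to 1.39 for Hoxb3, from -0.96 to 0.39 for Hoxb4, from -0.31 to 1.5 for Hoxb5 and from -1.25 to 0.39 for Pbx3. The intervals were set against a halving and a doubling of each gene's WT mean, put on the same log2(signal + 1) scale. A halving lay inside the interval of 6 genes (Hoxa3, Hoxa5, Hoxa7, Hoxa9, Hoxb4 and Pbx3) and a doubling inside that of 2 (Hoxb3 and Hoxb5), so changes of that size were not excluded for them.

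**Figure D2:**
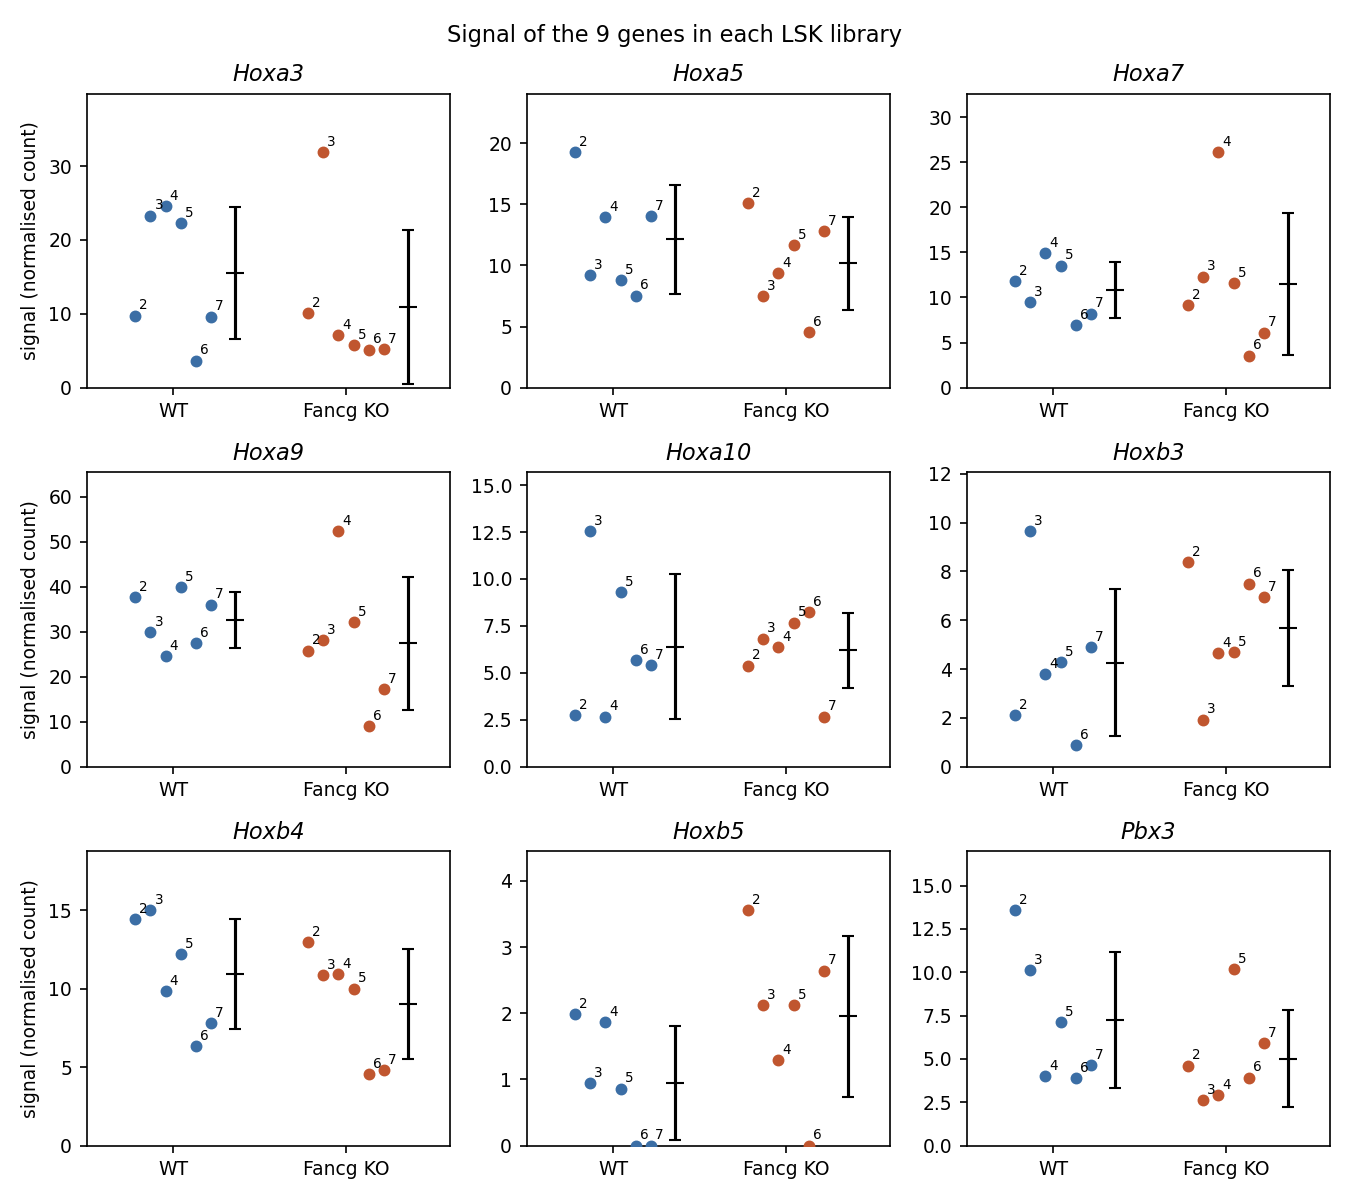
Signal of each of the 9 genes in the 6 WT (blue) and 6 Fancg KO (red) libraries, 1 point per library labelled with its number, with the mean and SD of each genotype in black; the vertical axes differ and start at 0. The genotypes overlap in all 9 panels, KO 4 is highest for Hoxa7 and Hoxa9 at 26.1 and 52.3, and KO 3 is highest for Hoxa3 at 31.9.

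**Figure D3:**
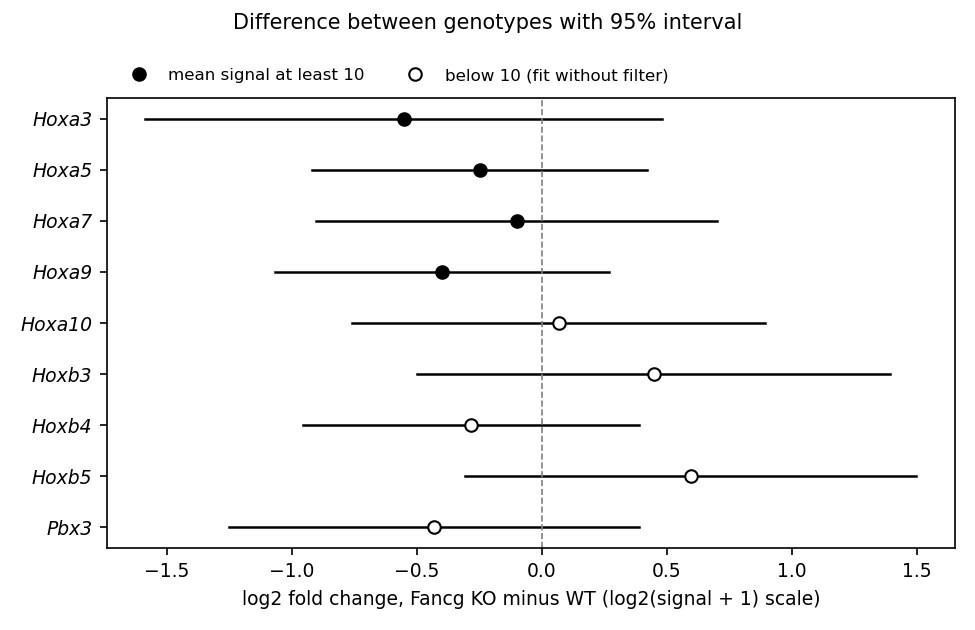
Log2 fold change of each gene, KO minus WT on the log2(signal + 1) scale, with its 95% interval; filled points are the 4 genes whose mean reached 10, and open points come from the fit without that limit. All 9 intervals cross 0, from -0.55 for Hoxa3 to 0.60 for Hoxb5.

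The libraries numbered 6 were low in the summed signal of these genes in both genotypes. WT 6 held the lowest WT value of 7 of the 9 genes, tied at 0 with WT 7 for Hoxb5, and KO 6 the lowest KO value of 6. KO 6 was not low in all, with the highest KO value of Hoxa10 (8.22) and, for Hoxb3, 7.50, below only KO 2. The summed signal of the 9 genes was 62.4 in WT 6 and 46.4 in KO 6, against 64.3 to 121 (median 102) in the other 10 libraries. KO 7, at 64.3, was close to WT 6, and relative to total signal KO 7 lay below WT 6. WT 6 and KO 6 were high in granulocyte and monocyte genes. The summed signal of Mpo, Elane, Prtn3, Ctsg, S100a8, S100a9 and Ly6c2 was 2254 in WT 6 and 2431 in KO 6, against 350 to 1082 (median 700) in the others. The summed signal of 7 stem cell genes (Procr, Slamf1, Hlf, Mecom, Fgd5, Mllt3, Ctnnal1) was 148 and 128 against 207 to 348, and was 247 in KO 7. Hlf, Mecom and Mllt3 carried most of this sum, and not all of the 7 were low, since Slamf1 at 16.2 in WT 6 was the highest WT value. Of the 7 granulocyte and monocyte genes 5 could be tested between genotypes, and of the 7 stem cell genes 4. None passed limma's unadjusted p of 0.05, against 3.67% of all genes tested, so these counts do not show that the genotypes are alike. Slamf1 had the largest log2 fold change of the stem cell genes, 0.69 (limma, unadjusted p = 0.0737). The erythroid genes summed to 76.7 in WT 6 and 83.8 in KO 6, inside the range of 10.3 to 100 (median 31.6) in the others. The B cell genes summed to 43.6 and 53.8, inside the range of 38.2 to 299 (median 176). WT 6, WT 7, KO 6 and KO 7 also had the fewest reads, 1235109 to 1484206. WT 6 and KO 6 had the highest shares of Lars2, 36.2 and 35.1% of total signal, and the sums were not rescaled without it. The part of these differences in the results was not tested, and in bulk RNA fewer cells of a type and less RNA per cell cannot be told apart. Without both libraries numbered 6, 0 of the 5 members that could be tested passed limma's unadjusted p under 0.05, against 358 of all 8895 genes tested. The log2 fold change of Hoxa9 was then -0.18 (limma, unadjusted p = 0.511). That of Hoxb3 was 0.10 (exact permutation test, p = 0.833) and that of Hoxb5 was 0.72 (exact permutation test, p = 0.0476).

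**Figure D4:**
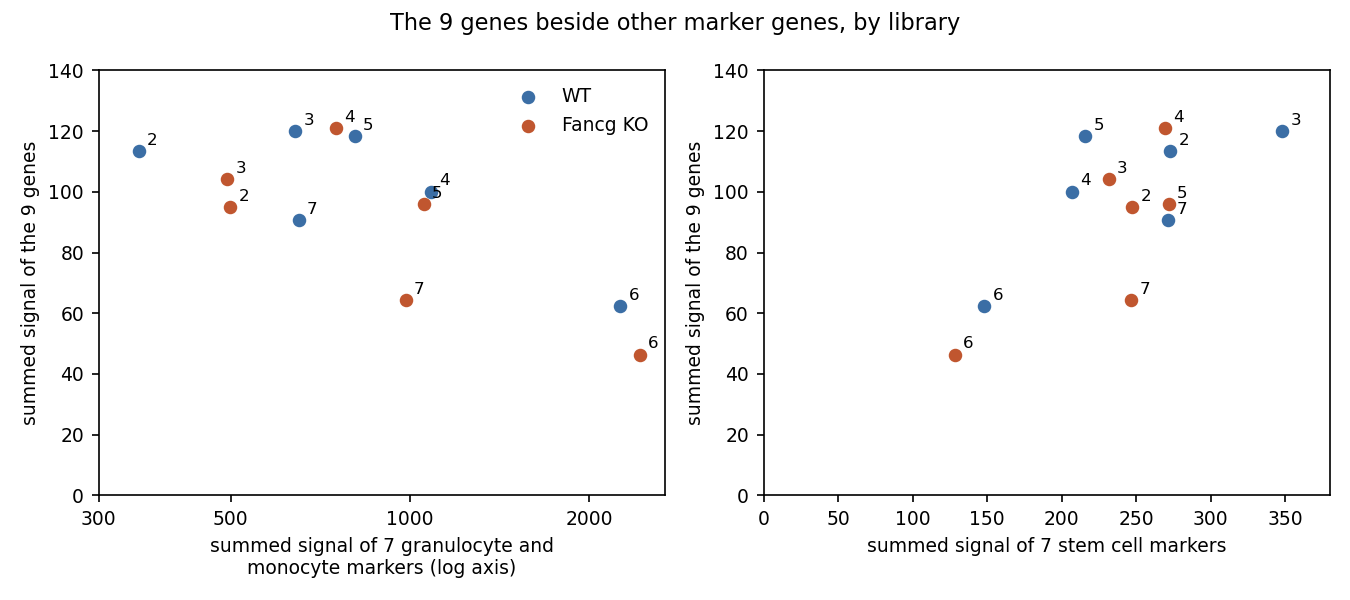
Summed signal of the 9 genes in each library against the summed signal of 7 granulocyte and monocyte markers (left, log axis) and of 7 stem cell markers (right), with WT in blue, Fancg KO in red and the library number beside each point. WT 6 and KO 6 lie at the bottom of both panels, at 62.4 and 46.4, with the highest myeloid sums and the lowest stem cell sums.

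Of the pairs of genes, Hoxa7 with Hoxa9 had the highest Pearson correlation between mice, and no difference between pairs was tested. Correlations were computed over the 12 libraries on deviations of log2(signal + 1) from the genotype mean, for the 6 pairs of the 4 genes above the limit. Pearson's r of Hoxa7 with Hoxa9 was 0.86 (permutation within genotype, p = 0.0076, adjusted p = 0.0454) and Spearman's rho was 0.69 (permutation p = 0.0286, adjusted p = 0.0859). Without KO 4 and KO 6, the libraries farthest from the median of Hoxa7, r was 0.47, so the relation rests in large part on these libraries. For Hoxa3 with Hoxa7, r was 0.42 (permutation p = 0.192, adjusted p = 0.530) and rho 0.69 (permutation p = 0.0198, adjusted p = 0.0859). The other 4 pairs had r of 0.01 to 0.40, with adjusted permutation p-values of 0.530 to 0.978. All pairs share the libraries' size factors and depth.

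Across all genes tested, the pattern of Hoxa9 over the libraries was most like those of BC024978, Atpaf1 and Nrgn. The mean absolute log2 difference of the deviations over the 12 libraries was 0.208, 0.217 and 0.219, against a median of 0.528 over all genes. Hoxa7 ranked 6 at 0.224, Hoxa5 3498 at 0.494 and Hoxa3 8490 at 0.823. Hoxa3, though in the same cluster, thus ranked far from Hoxa9 in this measure. The measure is not scaled by each gene's spread, so a wide spread alone can give a low rank. Pearson's r of Hoxa3 with Hoxa9 was 0.19.

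Most Hox genes outside the set were at or near 0. Of 39 Hox genes in all, 12 were at 0 in all libraries, 13 had a mean signal of at least 1 and 8 were above 0 in all 12 libraries. The Hoxa cluster summed to 52.6 to 103 (median 87.1) in WT and 31.6 to 111 (median 77.2) in KO libraries, and the Hoxb cluster to 12.4 to 42.1 (median 27.3) and 15.3 to 43.7 (median 25.8). The Hoxc cluster reached at most 6.09 and the Hoxd cluster at most 2.33 in any library. Of the 31 Hox genes outside the set, 26 had a mean under 1 and 0 reached the limit of 10, and none passed the exact permutation test at 0.05. Hoxb1 had the highest signal of them, with a mean of 8.99, and ran from 1.49 to 21.7 in WT and from 1.46 to 23.2 in KO libraries (log2 fold change 0.19, exact permutation test, p = 0.773).

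Among the partners of the Hox proteins, Meis1 had the highest signal. Meis1, which binds together with Hoxa9, had a signal of 302 ± 61.3 in WT and 311 ± 48.9 in KO libraries (SD, n = 6; log2 fold change 0.05, limma, unadjusted p = 0.744). Per kb its mean level was 40.6 over all libraries, against 9.30 for Hoxa9, and it was above Hoxa9 in 12 of 12. Of 9 TALE genes and PBX regulators beside Pbx3, Meis1 included, 4 could be tested, and 0 of them passed an unadjusted p of 0.05 by limma.

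A list of 25 genes linked to Hox transcription held the KMT2A and menin complex, DOT1L and its partners, Polycomb and CDX factors. It also held Kat6a, Kat7, Ctcf, Npm1, Xpo1 and Nup98. Of the 25, 21 could be tested and 1 passed limma's unadjusted p of 0.05, higher in KO, against 3.67% of all genes tested. The gene that passed was Men1, which codes for menin, the adaptor that holds KMT2A on Hoxa9 and Meis1. Its signal was 28.7 ± 6.93 in WT and 49.1 ± 19.2 in KO libraries (SD, n = 6), a log2 fold change of 0.71 (SE 0.24, limma, unadjusted p = 0.0106, exact permutation test, p = 0.0195). The KO range of 27.2 to 83.5 overlapped the WT range of 18.8 to 37.2. After adjustment over all genes no gene of the list passed. Of the other 20, 8 had a positive and 12 a negative log2 fold change, and the median over the 21 was -0.02. Npm1, with the highest signal of the list, had 763 ± 162 in WT and 773 ± 201 in KO libraries (log2 fold change 0.01, limma, unadjusted p = 0.978). Cdx1, Cdx2 and Cdx4 were at 0 in all libraries.

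Of 16 genes known to respond to HOXA9 and MEIS1, Meis1 included, 14 could be tested, 6 with a positive and 8 with a negative log2 fold change (median -0.07), and 1 passed limma's unadjusted p of 0.05, lower in KO, against 3.67% of all genes tested. The gene was Flt3, a cytokine receptor of multipotent and lymphoid-primed progenitors, with 489 ± 95.5 in WT and 358 ± 127 in KO libraries (SD, n = 6; log2 fold change -0.51, SE 0.23, limma, unadjusted p = 0.0423, exact permutation test, p = 0.0628). KO 6 had its lowest value, 178, and without KO 6 the log2 fold change was -0.32 (limma, unadjusted p = 0.108). Leaving out any of 5 WT libraries (all but WT 6) or KO 5 or KO 7 also took its p above 0.05, with log2 fold changes of -0.53 to -0.42. The gene called depended on the test. Erg, also lower in KO (log2 fold change -0.30), passed the exact permutation test (p = 0.0411) and not limma (unadjusted p = 0.0589). By the exact permutation test 2.86% of the 21536 genes above 0 in any library passed. Myb, with the highest signal of the list, had 713 ± 95.5 in WT and 756 ± 125 in KO libraries (log2 fold change 0.08, limma, unadjusted p = 0.593). No gene of the list passed after adjustment over all genes.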

How the data were processed

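RNA was sequenced from sorted LSK cells of 12 mice with the CATS RNA-seq Kit v2 on a NextSeq sequencer. The authors deposited 1 table of signal for 35999 genes, which was read, judging by the table's title and numbers, as kallisto's estimated counts after scaling by 1 factor per library. The submitters' processing notes name kallisto, and the mouse genome build and annotation are not given in the sources used here. Every column was matched to a library by its title. Low values gave the approximate reads per library, but only 12.4 to 13.1% of values were whole multiples of 1 read (within 0.01 read), so no count test was used.

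Signal was used as deposited. Genes with a mean of at least 10 (8887) were tested on log2(signal + 1) with limma 3.58.1 in R 4.3.3 (eBayes with a trend on mean level, two-sided p, adjusted by Benjamini-Hochberg), without covariates. Genes below that limit were tested with the exact permutation test in Python 3.11.15. Pair correlations used 100000 permutations within genotype. Both tests were checked on simulated data. The members and gene lists were chosen with earlier results of these data known. All 9 members are named, with the gene of highest signal in each list, list genes with an unadjusted p under 0.05, and the 3 genes most like Hoxa9 over the libraries. Hoxb1 met the rule, and the marker genes named beyond it were picked with their values in view. Some results of the lists are not reported here. The LSK, stem, erythroid, granulocyte and monocyte, B cell, T cell, megakaryocyte and stroma lists served as markers. Among them, beside Flt3, Itga2b was higher in KO (log2 fold change 0.72, limma, unadjusted p = 0.00597) and Pdgfrb lower (-0.37, unadjusted p = 0.0249). At an unadjusted p under 0.05, 3.67% of all genes tested passed, and no marker gene passed after adjustment. The highest WT value of Itga2b, 19.21, lay above its lowest KO value, 19.19, and KO 7 had 45.4. Pf4, Gp1ba and Vwf, the other megakaryocyte genes, did not pass the exact permutation test (p = 0.273, 0.325 and 0.528). The stroma and endothelium genes summed to 65.9 to 105 in WT and 60.3 to 87.8 in KO libraries, nearly all of it Pdgfrb. Alternatives were other pseudocounts, filters and scalings, limma without trend, the replicate number as a block and libraries left out.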

Additional observations from a re-analysis of the deposited data

Results flagged for a closer look

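Hoxa3 in KO 3 was far from the other KO libraries, at 31.9 against 5.16 to 10.1 in the other 5. Its gap to the nearest of them was 0.814 of the whole KO range, above Dixon's 95% critical value for a group of 6. Of 18 groups examined (9 genes in each genotype), chance gives about 0.9 such values, and 1 was seen.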

How the results depend on the processing

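None of the members that limma could test passed its unadjusted p of 0.05 under the other pseudocounts, scalings and filters, and leaving out 1 library at a time gave 0 to 1 genes, the 1 being Hoxa9 without KO 4. The fit without trend gave 0 as well, and with a mean of at least 50 no member could be tested. The number of genes past that p among all genes, 326 as reported, was 836 without a filter, 91 with a mean of at least 50, 124 when scaled to the total without Lars2, and 276 to 385 with 1 library left out, and 0 passed the adjusted threshold in each. The setting without a filter tests more genes (21536) and that with a mean of at least 50 fewer (3119), and for the scaling without Lars2 the cause was not tested. Of 203 values of the members under 25 alternatives, 193 kept their direction and their side of the threshold, 7 reversed and 3 passed it. The log2 fold change of Hoxa10 was -0.10 without WT 2, -0.10 without WT 4, -0.016 without KO 6 and -0.012 without both libraries numbered 6 (the last chosen after seeing the data, like the sum with Gm28308). That of Hoxa7 was 0.14 without KO 6, 0.016 without KO 7 and 0.038 without both. With 1 library left out Hoxa10 ran from -0.10 to 0.28, Hoxa7 from -0.37 to 0.14 and Meis1 from -0.015 to 0.13. Meis1 reversed to -0.0048 without WT 4 and to -0.015 without KO 7. Passing were Hoxa9 without KO 4 and Hoxb5 without KO 6 and without both. Over all alternatives Hoxa9 ran from -0.62 to -0.13, Hoxa3 from -0.91 to -0.27, Hoxa5 from -0.39 to -0.06, Hoxb4 from -0.41 to -0.05, Pbx3 from -0.63 to -0.24, Hoxa7 from -0.37 to 0.14, Hoxa10 from -0.10 to 0.46, Hoxb3 from 0.10 to 0.69 and Hoxb5 from 0.22 to 0.88. Men1 kept its call in all 23 and Flt3 lost it in 13 of 24. Few reads limit the precision of Hoxb5 and the other low genes, and for Hoxa3, Hoxa7 and Hoxa9 the spread between mice exceeded counting error by more.

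With the replicate number as a block, 0 members and 476 genes passed limma's unadjusted p, and 0 the adjusted one. Same-numbered libraries had correlations of 0.252, 0.212, 0.0911, 0.171, 0.362 and 0.0862, not all above 0.1. Each was above the mean correlation with other numbers, which ran from -0.0823 to -0.0186. WT 7, KO 4 and KO 7 correlated best with another number, and the other libraries with their own. Since neither rule held for every number, the numbers were not taken as a pairing in the main fit. What same-numbered libraries share was not tested.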
